A study of Mus musculus with 6 samples.

Results

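The replication-dependent histone genes of mouse embryonic fibroblasts (MEFs) were examined in WT cells and in cells without Mcm8. The genes were chosen by name, as protein-coding rows of the deposited count table called H1f, H2ac, H2bc, H3c or H4c with a number, which gave 69 of 55565 genes listed. Of these, 54 lie on chromosome 13, 10 on chromosome 3, 1 (H1f9) on chromosome 11, 2 (H1f10 and H1f8) on chromosome 6 and 2 (H1f0 and H1f7) on chromosome 15. A row for H2ac14 matched the names but is annotated as a pseudogene and was left out. The label does not hold for every gene the names select. H1f0 and H1f10 are known as replacement linker histones, made outside S phase as well, and H1f6, H1f7, H1f8, H1f9, H2ac1 and H2bc1 are known from germ cells. The chromosome 13 genes are therefore described apart from the others, and sums are given with and without H1f0 and H1f10.

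The data are bulk RNA-seq of 3 WT and 3 KO libraries. The MEFs were grown from trunks of E13.5 embryos of crosses between Mcm8+/- mice on a mixed C57BL/6J × ICR background, and cells of both genotypes carry the SV40 lentivirus used to immortalize them and were selected with puromycin. The KO allele was made with CRISPR-Cas9 and lacks exon 7, and reads from the rest of the gene still count towards Mcm8. Mcm8 encodes a helicase of the MCM family that acts in homologous recombination. The methods speak of biological repeats but do not say whether these were separate embryos or cultures, so p-values measure only the spread between these libraries.

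Replication-dependent histone genes supply the H1, H2A, H2B, H3 and H4 proteins that package new DNA, and their mRNAs accumulate in S phase and are degraded when replication ends. NPAT drives their transcription. Their transcripts have no introns and end just after a short stem-loop that SLBP binds and the U7 snRNP helps to cut, in place of a poly(A) tail, and a minority can also be made as longer polyadenylated transcripts. Libraries that select poly(A) RNA hold few of the stem-loop transcripts. Whether poly(A) RNA was selected is not given in the sources used here, so the level of a histone gene below is the level of those transcripts that entered these libraries.

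The stem-loop was searched on the sense strand of GENCODE M21 transcripts as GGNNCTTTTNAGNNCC, because this element sets how the mRNA ends. It was found in 41 of the 69 genes, and in 89 of 55450 genes of that annotation (0.1605%). The 6 forms found are shown with the stem in capitals and the loop in lower case, followed by the genes that hold them.
Form of 24 genes of H1, H2A, H2B and H3, among them H1f2: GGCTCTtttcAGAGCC
Form of 6 H4 genes: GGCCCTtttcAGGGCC
Form of 6 genes of H1, H2B and H3: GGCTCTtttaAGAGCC
Form of H4c14 and H4c9: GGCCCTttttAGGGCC
Form of H4c11 and H4c2: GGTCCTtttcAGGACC
Form of H2ac20: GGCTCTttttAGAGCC
No match was found in the annotated transcripts of the other 28 genes, which include H2bc4, H2bc21, H1f0 and H1f10, and 14 of these have no annotated transcript of 450 bases or more.

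Of the chromosome 13 and 3 genes, 12 pairs of an H2A and an H2B gene stood head to head, from 175 to 305 bases apart. The sequence between such a pair is the promoter of both. Upstream sequences of 3 genes are shown because the results below turn on them or on the partner across the gap. H2ac6 faces H2bc4 at 250 bases, and H2ac20 faces H2bc21 at 238 bases. They are RefSeq sequences on build GRCm38.p6, all on the minus strand, end at the base before the start of the named gene, and show 3 motifs in capitals. One is TATAAA, where transcription factor TBP can bind. Another is CCAAT, the motif of NF-Y, which reads as ATTGG on the other strand. The last is the octamer of POU factors, ATTTGCAT, which reads as ATGCAAAT on the other strand.
H2ac6, chr13:23683960-23684199: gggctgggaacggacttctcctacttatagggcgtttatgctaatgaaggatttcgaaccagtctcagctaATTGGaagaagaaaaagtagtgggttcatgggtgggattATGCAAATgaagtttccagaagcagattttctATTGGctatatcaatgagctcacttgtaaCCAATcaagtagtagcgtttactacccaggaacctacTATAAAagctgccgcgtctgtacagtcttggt
H2ac20, chr3:96220881-96221110: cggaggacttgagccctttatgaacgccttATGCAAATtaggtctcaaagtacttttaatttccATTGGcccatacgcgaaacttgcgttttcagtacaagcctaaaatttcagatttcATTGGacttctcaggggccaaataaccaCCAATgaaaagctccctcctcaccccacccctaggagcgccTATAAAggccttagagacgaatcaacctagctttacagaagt
H4c9, chr13:22041363-22041512: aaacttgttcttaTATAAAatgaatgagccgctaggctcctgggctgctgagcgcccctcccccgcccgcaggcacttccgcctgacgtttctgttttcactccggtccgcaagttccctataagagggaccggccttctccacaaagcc
The promoter table held 63 promoters of 62 histone genes. Within the 250 bases before the start, on either strand, the octamer was in 6 of 17 H2A and 7 of 15 H2B promoters and in 0 of those of H1, H3 and H4, against 1.60% of all 32851 promoters. CCAAT was in all 17 H2A and all 15 H2B promoters, in 7 of 10 H1, 8 of 10 H3 and 3 of 11 H4 promoters, and in 33.8% of all promoters. TATAAA was in 44.4% of the histone promoters and in 12.4% of all. These matches describe letters only, and none of the motifs is contained in another. A match between a head-to-head pair can be counted for both genes, so the H2A and H2B counts are not separate observations.

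Library totals ran from 12722979 to 21022755 counts, and the largest was KO1. Levels are CPM, each count as a share of its library after TMM normalization, unless FPKM, a level per length, is named. The ± sign gives the SD (n = 3 libraries). Mcm8 had 176, 233 and 238 counts in the WT libraries and 89, 74 and 66 in the KO libraries, a log2 fold change of -1.75 (SE 0.16, adjusted p = 4.45e-26, edgeR's quasi-likelihood test with Benjamini-Hochberg adjustment, as are all adjusted p values below). Xist lay between 940 and 1359 CPM in WT and between 474 and 494 in KO, and the sum of 4 Y-linked genes between 24.3 and 25.9 in WT and between 108 and 126 in KO. Sex composition and genotype thus cannot be told apart in these libraries. In bulk samples, fewer cells in S phase and less histone mRNA per cell cannot be told apart either.

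The histone genes were sparsely represented. Together they took from 0.0242% to 0.0314% of a library, and H1f0 and H1f10 alone made up 89.1% of their summed CPM in WT and 87.9% in KO. In every library 13 genes were at 0, among them 6 of the 10 chromosome 3 genes, and 32 genes had 3 or fewer counts in each library. A count of 0 does not show that a gene is silent, since 3 counts are the limit that it allows. A mean of at least 1 CPM was reached by 6 genes, H1f0, H1f10, H1f2, H2bc4, H4c9 and H2bc21. Per length, H1f0 had a mean of 109 FPKM over the 6 libraries, H1f10 21.9, H1f2 10.8, H4c9 4.48 and H2bc4 3.37. H4c9 and H2bc4 were close in WT, at 2.25 ± 0.171 and 1.84 ± 0.283 FPKM.

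Of the 56 histone genes with a count in any library, 4 rose in KO and 0 fell. The risen genes were H4c9 and H2bc4 on chromosome 13, H2ac20 on chromosome 3 and H1f10 on chromosome 6. H2ac20 had no count in any WT library, so it entered the test through KO alone. Its call was lost with no filter (adjusted p = 0.0863). Over all 26898 genes tested, 4.97% rose and 4.03% fell. At an absolute log2 fold change above 1, the study's limit for a DEG, 3 histone genes (H4c9, H2bc4 and H2ac20) were higher and 0 lower, against 1.75% and 0.665% of all genes. With filterByExpr or with no filter 2 were higher, H4c9 and H2bc4. At an unadjusted p below 0.05 edgeR had 4 histone genes higher and 1 (H1f2) lower, beside 9.47% and 8.47% of all genes. DESeq2 after adjustment had 2 higher (H4c9 and H2bc4) and 0 lower, beside 3.56% and 2.97% of all genes, with no adjusted p for 45 of the 56. Calls depended on level, since 0.994% of the 13676 genes with a mean under 1 CPM rose, against 10.8% of those from 1 to 10 CPM and 8.36% of those above. Of the histone genes, 50 were in the lowest of these ranges, where 1 rose, and 3 in each of the others, where 2 and 1 rose.

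H4c9 (chromosome 13, from 22224806 to 22225532 on GRCm39, as are all gene positions here) encodes histone H4. Its counts in libraries 1, 2 and 3 were 19, 24 and 32 for WT and 119, 64 and 84 for KO, or 1.49, 1.71 and 1.72 CPM against 5.62, 3.85 and 5.25. Every KO library lay above every WT library. The log2 fold change was 1.57 (SE 0.25, adjusted p = 2.05e-08), from 1.64 ± 0.130 to 4.90 ± 0.933 CPM. H4 genes are near copies of each other in their coding part, but 97.9% of the 150-base windows of the H4c9 transcript were found in no other gene's transcript.

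H2bc4 (chromosome 13, from 23868182 to 23876891) encodes a histone H2B. Its 1 annotated transcript has 1156 bases, fewer than that span, so it is spliced, unlike the transcripts without introns described above. The counts of H2bc4 were 31, 25 and 41 in WT and 110, 92 and 101 in KO. Its levels were 2.43, 1.78 and 2.20 CPM against 5.19, 5.53 and 6.31. The genotypes did not overlap. The log2 fold change was 1.40 (SE 0.23, adjusted p = 5.53e-08), from 2.14 ± 0.328 to 5.68 ± 0.572 CPM. H2ac6, the H2A gene that shares its promoter, had 0, 0 and 3 counts in WT and 3, 1 and 1 in KO, too few to compare. The call of H2bc4, like that of H4c9, held in 14 alternatives that tested for any change, with log2 fold changes from 1.30 to 1.49 for H2bc4 and from 1.46 to 1.72 for H4c9. In a test against a 2-fold change neither gene was called. In H2bc4, 82.6% of windows were unique, so part of its count could be shared with other H2B genes.

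**Figure D1:**
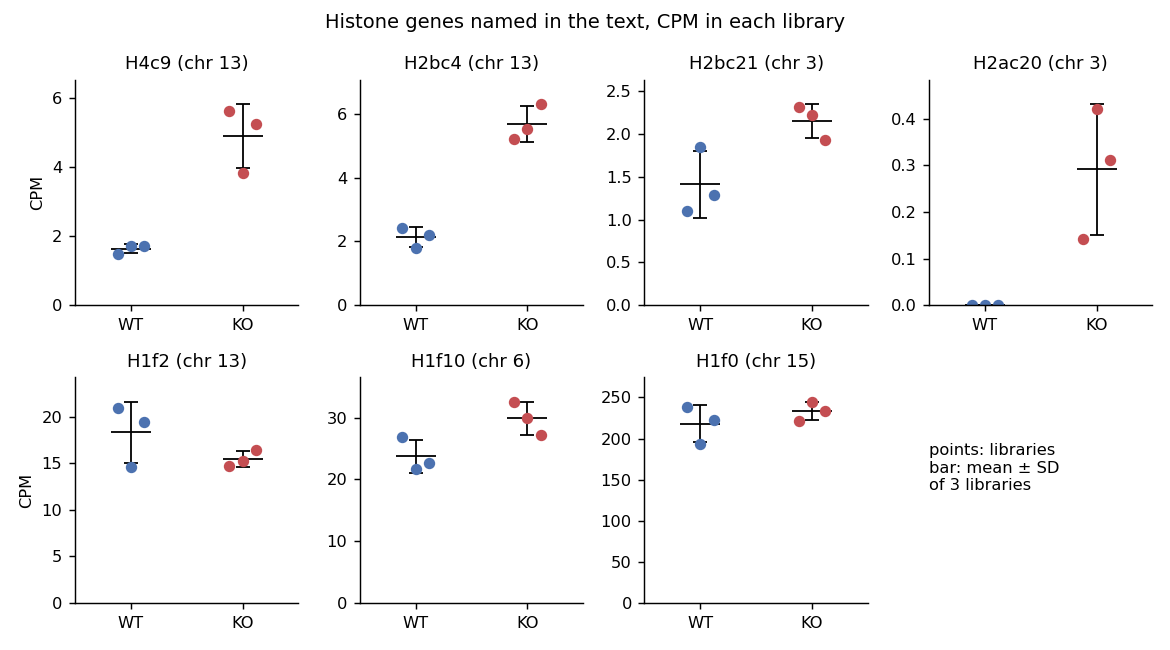
CPM of 7 histone genes in each of the 3 WT (blue) and 3 KO (red) libraries, with the mean and SD as bars and each vertical axis starting at 0. For H4c9 the KO libraries lie between 3.85 and 5.62 CPM, above the WT libraries at 1.49 to 1.72, and H2bc4 is separated in the same way, while the libraries of H1f2 and H1f0 overlap.

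On chromosome 3 the head-to-head pair H2ac20 and H2bc21 was the main source of counts. H2ac20 (from 96127677 to 96128196), which encodes a histone H2A, had 0 counts in every WT library and 3, 7 and 5 in the KO libraries. Its mean of 0.292 CPM in KO was 1.43 times a floor of 3 counts per WT library (0.203 CPM). KO1 (0.142 CPM) lay below that floor. The adjusted p of H2ac20 was 0.0418. That call rests on 15 counts in all: it held in 3 of 11 alternatives, with adjusted p from 0.0401 to 0.233, and was lost with any of the 6 libraries left out. H2bc21 (from 96128435 to 96131054), an H2B gene, had 14, 26 and 24 counts in WT and 49, 37 and 31 in KO, or 1.10, 1.85 and 1.29 CPM against 2.31, 2.22 and 1.94. Its genotypes did not overlap, but the log2 fold change of 0.61 (SE 0.32) did not pass the test (adjusted p = 0.305). In H2ac20 and H2bc21 all windows were unique. H3c15, which encodes histone H3, followed at 3, 0 and 4 counts in WT and 2, 3 and 1 in KO.

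The linker histones, which bind DNA between nucleosomes, held most of the counts. H1f2 (chromosome 13, from 23922791 to 23924350), the main linker histone gene of the cluster here, had 267, 205 and 361 counts in WT and 311, 253 and 263 in KO. Its log2 fold change was -0.25 (SE 0.12, adjusted p = 0.223), from 18.3 ± 3.29 to 15.4 ± 0.894 CPM. WT2 (14.6 CPM) lay below all KO libraries, and WT1 (20.9) and WT3 (19.4) above them. Without WT2 it was called lower, at -0.38 (adjusted p = 0.0272), and without WT1 it was -0.15 (adjusted p = 0.557). H1f10 (chromosome 6, from 87957403 to 87958619) had 26.8, 21.7 and 22.6 CPM in WT and 32.5, 30.0 and 27.2 in KO, with a log2 fold change of 0.34 (SE 0.10, adjusted p = 0.0119). Its KO3 value exceeded the highest WT value by little, and the call held in 9 of 14 alternatives, with adjusted p from 0.000235 to 0.24. It was lost without WT2, WT3, KO1 or KO2. Gm5577, an antisense lncRNA that overlaps H1f10, had 16, 16 and 49 counts in WT and 50, 41 and 34 in KO. Counting is not stated to have used strand, so the reads of the overlap cannot be told apart. H1f0 (chromosome 15, from 78912650 to 78914704) had 218 ± 22.5 CPM in WT and 233 ± 11.5 in KO, a log2 fold change of 0.10 (SE 0.07, adjusted p = 0.517), which was 0.16 without WT1 (adjusted p = 0.00737) and 0.020 without WT2 (adjusted p = 0.916).

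**Figure D2:**
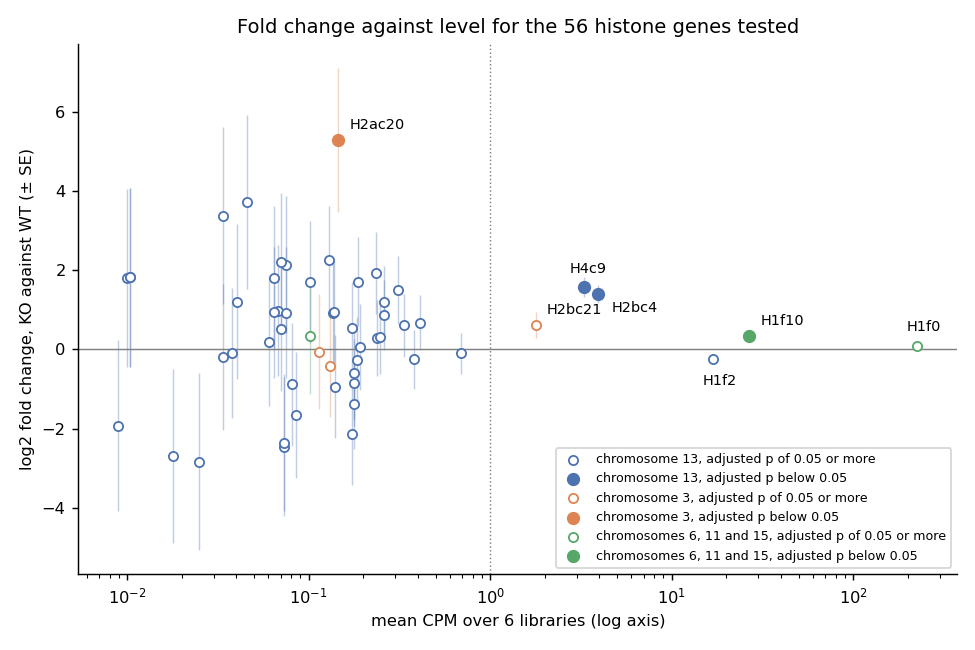
Log2 fold change of KO against WT (with its SE) for the 56 histone genes tested, against mean CPM on a log axis, coloured by chromosome, with filled points at an adjusted p below 0.05. Left of the dotted line at 1 CPM the estimates spread from -2.83 to 5.29, and right of it 5 of 6 genes lie above 0.

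Below 1 CPM single genes could not be resolved. The SE of the log2 fold change was between 0.52 and 2.26 for these 50 genes, and their changes ran from -2.83 to 5.29. H2bc6 had 7, 11 and 15 counts in WT and 20, 8 and 9 in KO, and overlaps H1f4 on the same strand. H4c11 had 4, 0 and 11 in WT and 7, 11 and 9 in KO. Neither passed the test (adjusted p = 0.953 and 0.681). H1f9, the sole gene on chromosome 11, had 2, 0 and 2 counts in WT and 2, 0 and 4 in KO. Over the 56 genes tested the KO libraries all lay above the WT libraries in 8, against 11.6% of all genes, and all below in 1, against 10.1%. Beside the genes above these were H3c8 (2, 3 and 2 counts in WT and 5, 15 and 4 in KO), H2bc8 (2, 2 and 0 against 9, 3 and 8) and H3c3 (3, 1 and 3 against 10, 5 and 5), and, lower, H4c8 (1, 3 and 2 against 1, 0 and 1), named here after their values were seen. None of the 4 passed the adjusted test.

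Taken as sums, the low genes were somewhat higher in KO. The 63 genes with a mean under 1 CPM summed to 5.57, 7.13 and 5.74 CPM in WT and 7.69, 8.12 and 8.24 in KO, a ratio of 1.30. The same sum over all 13676 genes tested at that level had a ratio of 1.11, also with every KO library above every WT library. The median log2 fold change of the 50 histone genes tested there was 0.53, beside 0.18 over all genes at that level and 0.01 over all genes tested. A log2 fold change above 0 was found for 31 of the 50 (62.0%), beside 54.2% of all genes at that level. No test over the genes is given, and each library's sum rests on 71 to 163 counts.

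The chromosome 13 genes lie in 2 blocks. The first (from 21899933 to 22227846, 23 genes, with H4c9) summed to 4.15 ± 0.293 CPM in WT and 7.89 ± 0.925 in KO. Without H4c9 the other 22 summed to 2.51 ± 0.263 and 2.99 ± 0.388, and the libraries overlapped. The second (from 23715220 to 24118834, 31 genes, with H1f2 and H2bc4) summed to 23.7 ± 2.95 and 25.5 ± 1.17, and its libraries overlapped. All 54 summed to 27.9 ± 2.67 CPM in WT and 33.4 ± 1.76 in KO, a log2 ratio of 0.26, with every KO library above every WT library. Without H1f2, H2bc4 and H4c9 the other 51 summed to 5.79 ± 0.860 and 7.39 ± 0.150, again with every KO library above every WT library. The median log2 fold change of the 49 tested was 0.61, but it ran from 0.38 (without KO3) to 1.17 (without WT3) with 1 library left out. It was 0.046 on the log2(FPKM + 1) scale, where the added 1 draws changes of genes with low FPKM towards 0. Off chromosome 13, the 15 genes summed to 244 ± 24.5 and 266 ± 10.5 CPM (log2 ratio 0.13, 0.053 without WT2 and 0.20 without WT1). The median log2 fold change of the 7 tested was 0.34, and 0.10 without KO3. Without H1f0 and H1f10 the sums were 1.77 ± 0.386 and 2.79 ± 0.0388 CPM (log2 ratio 0.65).

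By family on chromosome 13, the H2B sum was 3.78 ± 0.136 CPM in WT and 7.91 ± 0.455 in KO, 2.09 times as high, and the H4 sum 3.06 ± 0.00428 and 6.55 ± 1.10, 2.14 times as high. In both the KO libraries lay above all WT libraries. H2bc4 and H4c9 gave most of these sums in KO. Without them the H2B sum was 1.64 ± 0.436 and 2.23 ± 0.154 and the H4 sum 1.42 ± 0.127 and 1.65 ± 0.208, and the libraries of both overlapped. The H2A sum was 0.775 ± 0.504 against 1.11 ± 0.177 and the H3 sum 1.38 ± 0.234 against 1.70 ± 0.452, and for both the libraries overlapped. The H1 sum was 18.9 ± 3.18 in WT and 16.1 ± 0.896 in KO, mostly H1f2. H1 was the 1 family of the chromosome with a lower mean in KO, and its libraries overlapped.

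**Figure D3:**
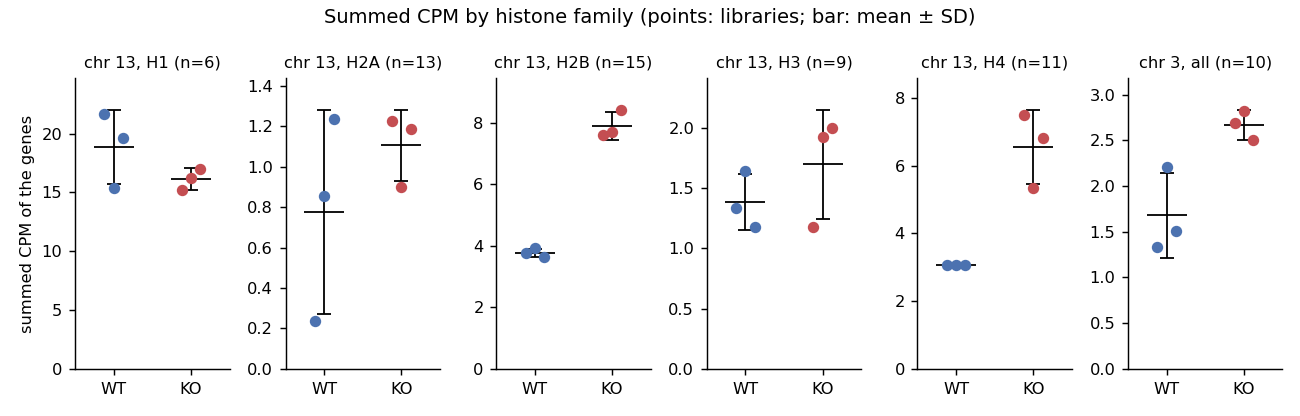
Summed CPM of the chromosome 13 genes of each histone family, and of the chromosome 3 genes, in the 3 WT (blue) and 3 KO (red) libraries, with the mean and SD as bars and axes starting at 0. The sums of H2B (3.65 to 3.92 in WT and 7.60 to 8.43 in KO) and H4 are separated between genotypes, while those of H1, H2A and H3 overlap. The chromosome 3 sum is separated too (1.33 to 2.21 in WT and 2.50 to 2.825 in KO).

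Levels were set beside the annotated transcript ends. In 22 genes the annotated transcript ends within 100 bases after the stem-loop, and none of these reached a mean of 1 CPM. The highest of them, H2bc11, had 0.823 FPKM, and 14 had 3 or fewer counts in every library. In 19 genes it runs on for more than 100 bases, and 2 of these, H1f2 (840 bases further) and H4c9 (330 bases further), reached 1 CPM. Of these 19 genes, 8 have AATAAA or ATTAAA in the last 60 bases, H1f2, H4c9 and 6 genes that stay under 1 CPM. H2bc4 has neither. Of the 28 genes with no stem-loop found, 4 (H1f0, H1f10, H2bc4 and H2bc21) reached 1 CPM. The 6 genes best measured here are thus genes whose annotated transcripts run past the stem-loop or in which none was found, and H2ac20 (57 bases further) is the 1 called gene with a short end. Median levels differed little, at 0.0960, 0.128 and 0.142 FPKM in these 3 groups. The annotation is older than that used for the counts, but the longest transcript had the deposited gene length for 65 of the 69 genes.

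Other RNAs without a poly(A) tail were also rare. Of 11 rows for such RNAs (Rmrp, small nuclear and Cajal body RNAs among them) 10 were at 0 in all libraries, and the other, Scarna2, stayed under 0.215 CPM. Levels were also set beside the sequence shared between near-identical copies. Of the 69 genes, 24 had under 50% unique windows, and none of these reached 1 CPM. Among the 30 genes with 50% to under 100% unique windows 4 did, and among the 15 with 100% unique windows 2 did. Median levels in these groups were 0.0510, 0.163 and 0.101 FPKM. The part of library selection and of shared sequence in the low levels was not tested. Protein-coding neighbours between the first and the last chromosome 13 histone gene were 49, of which 38 were at 0 in all libraries, and 1 of 11 tested, Hfe, rose (0.84, SE 0.29, adjusted p = 0.0470). That call held in 4 of 14 alternatives, with adjusted p up to 0.218, and was lost with DESeq2 (adjusted p = 0.139) and with each library but WT1 left out.

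**Figure D4:**
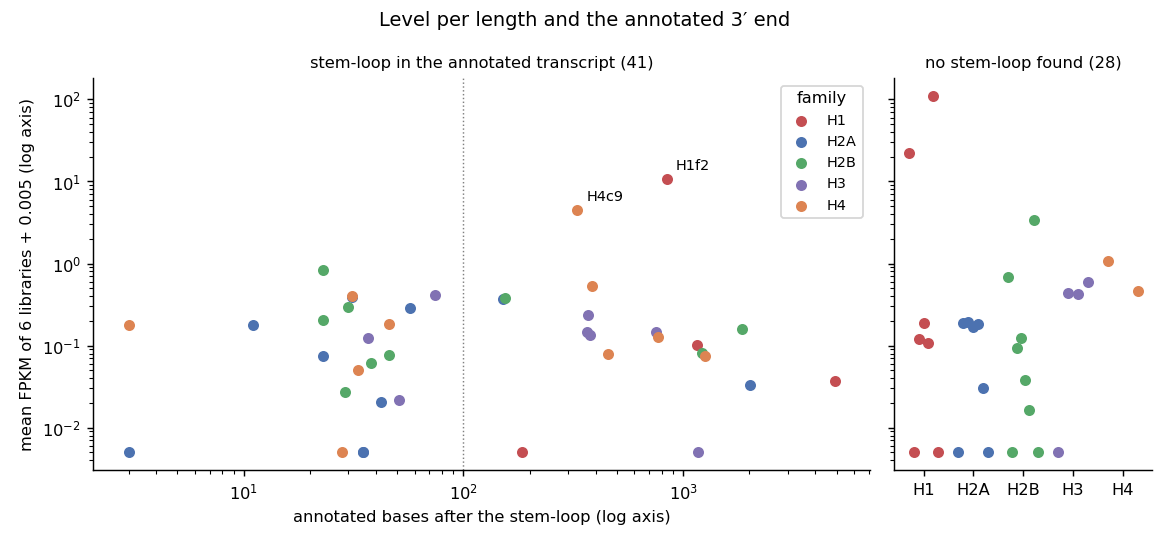
Mean FPKM over the 6 libraries (plus 0.005, log axis) of the 41 genes with a stem-loop against the annotated bases after it (log axis, dotted line at 100), and of the 28 genes without one by family. Genes to the left of the line stay at or below 0.823 FPKM (H2bc11), and H1f2 and H4c9 stand out to the right.

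The genes that make and use histone mRNA were measured at 1 CPM or more, with the exception of Zfp473 (6, 10 and 15 counts in WT and 21, 12 and 14 in KO). Among 13 factors of histone gene transcription 0 rose and 1, Nfya, a subunit of the CCAAT-binding factor NF-Y, fell by 0.22 (SE 0.08, adjusted p = 0.0461). That call held in 6 of 14 alternatives, with adjusted p up to 0.305, and was lost without WT2, WT3, KO1, KO2 or KO3. Npat, the activator of histone genes, had 83.7 ± 8.83 CPM in WT and 79.0 ± 2.58 in KO (-0.08, adjusted p = 0.621). Among 19 factors of 3′ processing 3 rose and 0 fell. The risen genes were Snrpe (0.37, adjusted p = 0.000872) and Snrpf (0.30, adjusted p = 0.0243), which encode Sm proteins shared by U7 and the spliceosomal snRNPs, and Sympk (0.22, adjusted p = 0.0279), which encodes symplekin of the cleavage complex. DESeq2 called 2 of these 19 higher and 0 lower, and at an unadjusted p below 0.05 edgeR had 6 higher and 0 lower, beside 9.47% and 8.47% of all genes. In Snrpf the WT libraries ran from 18.0 to 37.2 CPM and overlapped those of KO. Its call held in 6 of 14 alternatives and was lost with DESeq2 (adjusted p = 0.664), without KO2 or KO3, and without WT2, where the change was 0.073 (adjusted p = 0.774). Snrpe held in 12 of 14 (lost without WT2 or KO3) and Sympk in 10 of 14 (lost with no filter and without KO1, KO2 or KO3).

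The factors particular to histone mRNA were not called. Slbp, the stem-loop binding protein, had 110, 103 and 102 CPM in WT and 101, 104 and 104 in KO, a log2 fold change of -0.02 (SE 0.08, adjusted p = 0.906). Its libraries overlapped. The U7 proteins Lsm10 (0.16, SE 0.13, adjusted p = 0.573) and Lsm11 (-0.08, SE 0.11, adjusted p = 0.712), Casp8ap2 (FLASH, -0.10, SE 0.08, adjusted p = 0.565) and Zfp473 (0.36, SE 0.49, adjusted p = 0.710) did not pass the test either. Of 15 genes of histone mRNA decay 0 were called by edgeR or DESeq2 and 1 had an unadjusted p below 0.05. They include Eri1, the exonuclease that trims the stem-loop (-0.15, SE 0.08, adjusted p = 0.309), Lsm1 (0.04, adjusted p = 0.874) and Upf1 (0.07, adjusted p = 0.650).

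The counts of called genes in these lists stand beside 8.36% higher and 8.79% lower among all genes with a mean of at least 10 CPM. Of 21 histone chaperones 1 rose and 2 fell. Hjurp, the chaperone of the centromeric variant CENP-A, went from 172 ± 20.6 to 296 ± 5.59 CPM (0.79, SE 0.07, adjusted p = 4.77e-27). Npm1 fell by 0.31 (adjusted p = 2.71e-05) and Nap1l1 by 0.27 (adjusted p = 0.00103). Of 11 replacement histones 4 rose and 0 fell (1 and 0 by DESeq2), with a median of 0.10. They were H1f10, H2az2 (0.42, SE 0.10, adjusted p = 0.000332), which encodes an H2A.Z protein, H2aj (0.37, SE 0.12, adjusted p = 0.0173) and Macroh2a1 (0.21, SE 0.07, adjusted p = 0.0444). H2az2 held in all 14 alternatives. H2aj held in 8 and was lost with DESeq2, filterByExpr and FPKM above 0 in every library, and without WT2, KO1 or KO3. Macroh2a1 held in 6 and was lost in the same alternatives, with no filter and without KO2. Without WT2 the change of H2aj was 0.24 (adjusted p = 0.281) and that of Macroh2a1 0.14 (adjusted p = 0.329). Of 36 genes of S phase 1, Pold1, a subunit of DNA polymerase delta, rose (0.24, SE 0.07, adjusted p = 0.0183) and 0 fell, and their median was 0.02. At an unadjusted p below 0.05 edgeR had 5 of these 36 higher and 3 lower, and DESeq2 after adjustment 1 higher and 1 lower. Pold1 was not called without WT2, KO1, KO2 or KO3. Of 22 genes of G2/M 1 rose (Plk1, 0.30) and 2 fell (Kif11, -0.24, and Hmmr, -0.29). Kif11 was not called without KO1 or KO3, nor Hmmr without KO2 or KO3.

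**Figure D5:**
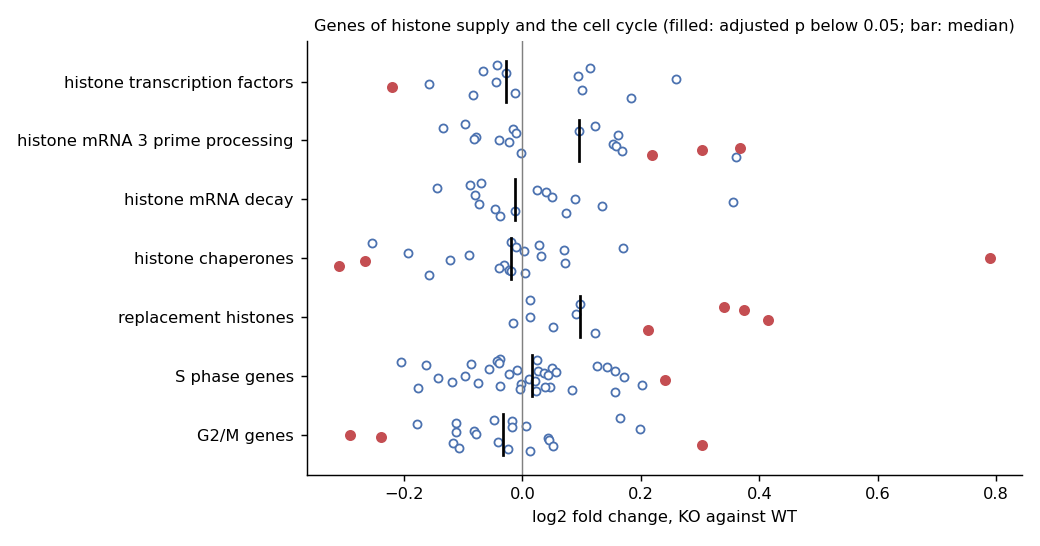
Log2 fold change of KO against WT for the genes of 7 lists, with filled points at an adjusted p below 0.05 and a bar at each median. All medians lie between -0.03 and 0.10, and Hjurp stands apart among the chaperones at 0.79.

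Markers of other cell types were checked over whole lists. The 12 fibroblast markers were all above 1 CPM, and 3 rose and 4 fell. Those that rose were Fn1 (0.29), Col3a1 (0.29) and Col1a1 (0.20). Thy1 (-1.03), Pdgfrb (-0.74), S100a4 (-0.49) and Vim (-0.19) fell. The median change of this list was 0.03. Its summed CPM overlapped between genotypes, with WT libraries at 25980 to 30800 and KO libraries at 30180 to 31050. Of 8 epithelial markers 3 rose and 0 fell, with WT sums of 3.56 to 5.17 CPM and KO sums of 12.3 to 13.3. Of 7 mesothelial markers 2 rose and 0 fell, with WT sums of 7.13 to 8.15 CPM and KO sums of 50.02 to 56.6, most of it Msln (44.9 CPM in KO). Krt19, which rose (0.85, adjusted p = 0.000508), is in both lists, so their calls are not separate. Epithelial Krt8 was at or near 0 in WT. Markers of endothelium, blood cells and skeletal muscle gave 0 calls by edgeR or DESeq2 and 0 at an unadjusted p below 0.05, with sums under 4.57 CPM in each library. The part of such cells, and of sex composition, in the histone gene values was not tested.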

How the data were processed

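Processed tables of bulk RNA-seq of 3 WT and 3 KO MEF libraries were analysed. Per the methods and the submitters' processing notes, the authors trimmed read pairs with fastp, aligned them with HISAT2 2.0.5 to the Ensembl 106 assembly (the notes list GRCm38, but the deposited coordinates are those of GRCm39), counted reads per gene with featureCounts 1.5.0-p3 and deposited raw counts and FPKM values. How reads matching several genes were counted is not given in the sources used here. Groups came from sample titles.

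Genes with an FPKM above 0 in any library (26898 of 55565) were tested on the counts with edgeR 4.0.16 in R 4.3.3: quasi-likelihood fit, TMM, no covariates, Benjamini-Hochberg adjustment over all of them at 0.05. The common biological coefficient of variation was 0.078 and the prior degrees of freedom were infinite, so a gene that varies more than the trend gets too small a p-value. Floors cover counting error only. DESeq2 1.42.0, other scalings and filters, a replicate block and each library left out were alternatives. A simulation of 19210 genes, 200 of them changed, was run first, and edgeR found all 200 and 1 other. The changed genes were well counted, had large changes and the same dispersion. Only calls at an absolute log2 fold change above 1 were counted. The simulation therefore does not cover genes with few counts or smaller changes. Correlations between libraries of the same number, over deviations from the genotype means, were -0.01, -0.01 and 0.04, so the numbers were not taken to pair libraries.

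Named were Mcm8, every histone gene with an adjusted p below 0.05, the 5 highest on chromosome 13 and the 3 highest on each other chromosome by mean CPM (genes at 0 aside), H1f0, H1f10, 9 fixed histone mRNA factors, and in each list up to 3 called genes of largest change. The genes, lists and rule were chosen with earlier results of these data known. Sequences came from GENCODE M21 transcripts and RefSeq promoters.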

Additional observations from a re-analysis of the deposited data

How the results depend on the processing

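The number of histone genes higher in KO was 4, and 2 with DESeq2, 0 in a test against a 2-fold change, and from 2 to 4 with each library left out. The number lower was 0, and from 0 to 1 with each library left out, H1f2 being called without WT2. The number of DEGs higher was 3, and 0 against a 2-fold change. It was 2 (H4c9 and H2bc4) with DESeq2, filterByExpr, no filter, no library at 0, the replicate block and each library left out, and 3 with RLE, library totals and the robust fit. With a replicate block 3 genes were higher (H1f10, H4c9 and H2bc4) and the chromosome 13 median rose from 0.61 to 0.73. That median was 0.66 with filterByExpr (4 genes), 0.20 for the 12 genes with no library at 0, 0.046 on the log2(FPKM + 1) scale, 1.40 for the 3 genes at 1 CPM or more, and from 0.38 to 1.17 with each library left out. The added 1 draws the value on the log2(FPKM + 1) scale towards 0 for genes with low FPKM. Even with that value set aside the median is no stable measure of size, though it stayed above 0 in all of these. Off chromosome 13 the median was 0.10 on the log2(FPKM + 1) scale and from 0.10 to 0.48 with each library left out. The log2 ratio of sums on chromosome 13 was 0.26, and 0.42 with FPKM. Off chromosome 13 it was 0.13, from 0.053 (without WT2) to 0.20 (without WT1) with each library left out, and 0.65 without H1f0 and H1f10, an alternative chosen after seeing the data. With each library left out, signs reversed for H2bc6 (-0.46 to 0.087, above 0 without WT3, KO2 or KO3), H1f9 (-0.71 to 0.88, below 0 without WT2 or KO3), Slbp (-0.045 to 0.013, above 0 without WT1) and Lsm1 (-0.026 to 0.14, below 0 without WT3), none called. H1f0 was called without WT1 (0.16, adjusted p = 0.00737) and lowest without WT2 (0.020, adjusted p = 0.916). The cause of these changes was not tested. Counts of 3 or fewer in 32 of 69 genes limit what depth can show.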
